A study of Homo sapiens with 6 samples.

Results

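The HOX genes were followed in HEK293T cells, an established human line derived from embryonic kidney, in which THUMPD2 had been knocked out. THUMPD2 is the RNA methyltransferase that modifies the U6 small nuclear RNA of the spliceosome. The groups were the knockout lines labelled THUMPD2 KO#1 (KO1) and THUMPD2 KO#2 (KO2) and the wild-type line (WT), all HEK293T cells with no other allele or agent in the labels, with 2 libraries of total RNA each. How the knockout lines were derived is not given in the sources used here. With 1 WT line, an effect of the knockout and other differences between the lines cannot be told apart. Nothing in the labels says that the libraries within a group are separate cultures, and the spread behind each p-value may then be technical.

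The members were the rows of the deposited count table whose symbol begins with HOXA, HOXB, HOXC or HOXD, together with the long noncoding RNAs HOTAIR, HOTAIRM1 and HOTTIP. This rule took 55 of the 59087 rows, 17 from HOXA, 14 from HOXB, 14 from HOXC and 10 from HOXD. Of these, 39 carried the symbol of a coding HOX gene and 16 that of an antisense or other long noncoding RNA. A summed count of at least 20 reads over the 6 libraries was reached by 50 rows, which were tested. The other 5 were HOXB1 with no read, HOXD1 with 1, HOXD4 with 7, HOXC12 with 8 and HOXC5 with 17 reads in all libraries together.

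HOX genes encode homeodomain transcription factors that give cells their position along the body axis. They lie in 4 clusters in which gene order follows the order of expression, from the low-numbered genes of the head and neck to the high-numbered genes of the trunk, limbs and urogenital tract. Polycomb proteins keep the clusters silent and trithorax proteins keep them active, and long noncoding RNAs transcribed between and across the genes take part in this control. Cultured lines usually keep a fixed pattern of active and silent HOX genes.

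On GRCh38 with the GENCODE release 29 annotation, the placed members lay at chr7:27092993-27207259 (HOXA), chr17:48528526-48729178 (HOXB), chr12:53935328-54056030 (HOXC) and chr2:176092891-176190907 (HOXD). Each cluster also holds microRNA genes. The microRNA miR-196, which targets HOX messages, is shown because genes for it lie under HOXB-AS4, the row that rose most here, and HOXA10-AS, among the most abundant rows. A further gene for it, MIR196A2, lies inside the HOXC cluster (chr12:53991738-53991847, plus strand) and under neither of these rows. MIR196A1 lies on the opposite strand in an intron of HOXB-AS4, and MIR196B on the opposite strand in an exon of HOXA10-AS. The mature sequences from RefSeq (GRCh38.p14, both on the minus strand, at chr17:48632532-48632553 and chr7:27169528-27169549) are written 5′ to 3′ with the seed, bases 2 to 8, in capitals.
hsa-miR-196a-5p: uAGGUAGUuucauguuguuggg
hsa-miR-196b-5p: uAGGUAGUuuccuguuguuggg
They share the seed and differ by A12C, counted from 1 at the 5′ end with the base of miR-196a first. The rows MIR196A1, MIR196A2 and MIR196B held 0 reads in every library, so the microRNAs themselves were not measured.

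Depth was similar across groups, with library totals of 7414339 to 7539788 counted reads in KO1, 7926552 to 8391143 in KO2 and 7619064 to 8085598 in WT. The library kit keeps the strand of each transcript, and the deposited counts followed the strand opposite to the annotated gene. Outside the HOX clusters, 437 antisense rows shared at least 100 exonic bases with the gene they are named after and had, with it, a summed mean of at least 10 reads, and the antisense row was the higher of the pair in 318 of them (72.8%), with a median ratio of 7.41. The row of GAPDH, a housekeeping gene, averaged 168.5 reads, against 131100 for the row AC006064.4 that lies over it. A row is therefore named here as the file names it, and is set beside the gene it lies over. The THUMPD2 row held 3 and 0 reads in KO1, 0 and 1 in KO2 and 1 and 2 in WT, which cannot check the knockout labels.

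The HOX rows had the same asymmetry. Antisense and other noncoding rows took 90.4% of all member reads, 89.3% in HOXA, 96.4% in HOXB, 85.6% in HOXC and 80.2% in HOXD. The median row of a coding HOX gene averaged 26.8 reads per library and the median noncoding row 555 reads. An exon of a gene on the opposite strand lay under 31 of the 55 rows. HOXA-AS3 shared 1507 exonic bases with HOXA7 and 505 with HOXA6, HOXA10-AS shared 608 with HOXA10 and 422 with HOXA9, and HOXA11-AS shared 717 with HOXA11. HOXB-AS3 shared 425 with HOXB6, HOXB-AS1 374 with HOXB3, HOXD-AS2 379 with HOXD3 and HOXC-AS2 163 with HOXC9. A change in such an antisense row can thus lie mostly in reads of the coding gene beneath it. In the same way, a change in a coding row can lie mostly in reads of its antisense partner. Rows that share no exon with an opposite gene were counted in the same way. Below, coding and noncoding, and what a gene does, refer to the symbol of a row and not to the RNA counted in it. Rows that share exons on 1 strand, such as HOXC4 and HOXC6 (484 bases) or HOXD10 and HOXD11 (452 bases), are uncertain as to which gene a read came from.

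HOX reads were a smaller part of the RNA in both knockout lines. Members held 0.4935% and 0.4635% of counted reads in KO1 and 0.3738% and 0.3743% in KO2, against 0.6352% and 0.6344% in WT. In CPM, reads scaled to a common library size with TMM factors, the summed level was 4915 ± 54.6 in KO1 and 3605 ± 19.5 in KO2, against 6443 ± 67.3 in WT (SD, n = 2 each). The groups did not overlap, and KO2 was the lowest. No test is given for such sums, since 2 against 2 libraries give a smallest two-sided exact permutation p of 1 in 3.

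The loss was unequal among the clusters. HOXA summed to 2682 ± 34.3 CPM in KO1 and 1915 ± 2.58 in KO2, against 3733 ± 66.2 in WT, which is 71.8% of WT in KO1 and 51.3% in KO2. HOXB summed to 1485 ± 57.3 CPM in KO1 and 1097 ± 15.9 in KO2, against 1920 ± 14.7 in WT (77.3% and 57.1% of WT). In the sums of these clusters both lines were below WT and KO2 was below KO1. The HOXB sum was mostly 1 row, HOXB-AS3, which held 1500 of the 1920 CPM in WT, 1090 of 1485 in KO1 and 808 of 1097 in KO2. HOXC summed to 312.3 ± 2.05 CPM in KO1 and 133.2 ± 2.85 in KO2, against 331.4 ± 14.3 in WT, so that KO1 kept 94.2% of the WT level and KO2 40.2%. The coding HOXC rows alone were at 68.4% of WT in KO1 and 27.9% in KO2, and the noncoding rows at 99.6% and 42.8%. In HOXA the coding rows were at 91.9% and 60.8%, and the noncoding rows at 69.7% and 50.3%. The HOXA11 row alone held 157 of the 354.8 CPM of the coding HOXA rows in WT, 58.4 of 326.1 in KO1 and 31.9 of 215.6 in KO2. Over the 11 coding HOXA rows the median log2 fold change was 0.34 in KO1 and -0.21 in KO2, so the coding sum does not describe the typical row. In HOXB the coding rows were at 90.8% and 78.6%, and the noncoding rows at 76.9% and 56.5%. HOXD summed to 435.8 ± 29.6 CPM in KO1 and 459.8 ± 3.83 in KO2, against 457.7 ± 0.643 in WT, at 95.2% and 100% of WT. The 6 HOXD libraries lay between 414.9 and 462.5 CPM, with the KO1 libraries lowest and the KO2 libraries on both sides of WT.

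**Figure D1:**
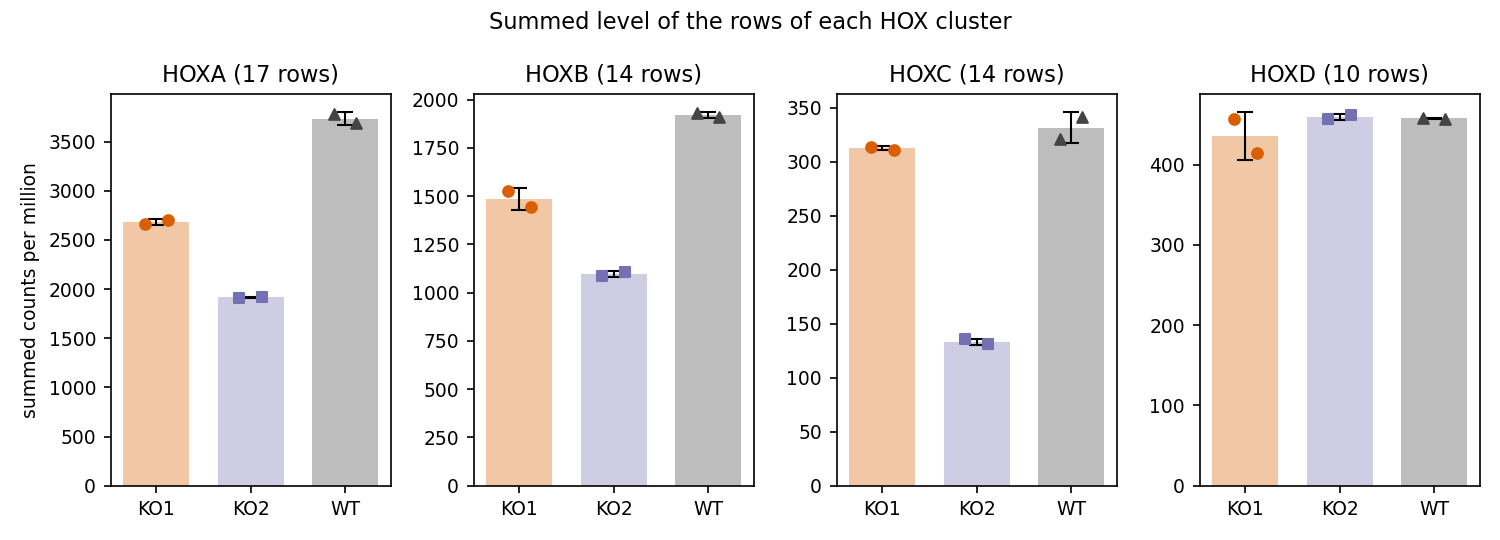
Summed CPM of the rows of each HOX cluster in KO1, KO2 and WT; points are the 2 libraries of a group, bars their mean and whiskers the SD. HOXA and HOXB were below WT in both lines, HOXC stood at 40.2% of WT in KO2 and 94.2% in KO1, and the HOXD libraries lay between 414.9 and 462.5 CPM in all groups.

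Single rows were tested with edgeR's quasi-likelihood F test across all 18108 rows of summed count 20 or more, and calls are rows with an adjusted p (Benjamini-Hochberg) under 0.05. Against WT, KO1 had 16 of 50 members called (32.0%), 7 higher and 9 lower, where 18.2% of all rows were called, 8.18% higher and 10% lower. KO2 had 23 of 50 called (46.0%), 3 higher and 20 lower, where 22.6% of all rows were called, 10.9% higher and 11.7% lower. The median member log2 fold change was -0.13 in KO1, beside 0.02 over all rows, and -0.59 in KO2, beside 0.04 over all rows. In the mean of both lines 23 members were called, 5 higher and 18 lower, where 22.0% of all rows were called, 9.85% higher and 12.2% lower. KO1 and KO2 share the WT libraries, so the comparisons are not independent. By cluster, KO1 had 9 of 17 tested HOXA rows called, 3 of 13 HOXB, 3 of 12 HOXC and 1 of 8 HOXD. The numbers in KO2 were 10 of 17 in HOXA, 4 of 13 in HOXB, 9 of 12 in HOXC and 0 of 8 in HOXD, where DESeq2 and limma-voom also called 0 and edgeR gave 1 row at an unadjusted p under 0.05.

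Noncoding rows, which hold far more reads, made up most of the calls. Of 16 tested noncoding rows, 9 were called in KO1 (56.2%) and 14 in KO2 (87.5%). The share called among non-HOX rows of like abundance was not computed. Of 34 tested coding rows, 7 were called in KO1 (20.6%) and 9 in KO2 (26.5%), shares near the 18.2% and 22.6% of all rows. Calls in both lines with 1 sign numbered 3 higher (HOTAIR, HOXA5 and HOXB-AS4; 4.55% of all rows) and 8 lower (HOTAIRM1, HOXA-AS3, HOXA10-AS, HOXA11, HOXA11-AS, HOXB-AS3, HOXC-AS1 and HOXC11; 5.74% of all rows). HOXA10 was called in opposite directions, as were 0.812% of all rows.

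**Figure D2:**
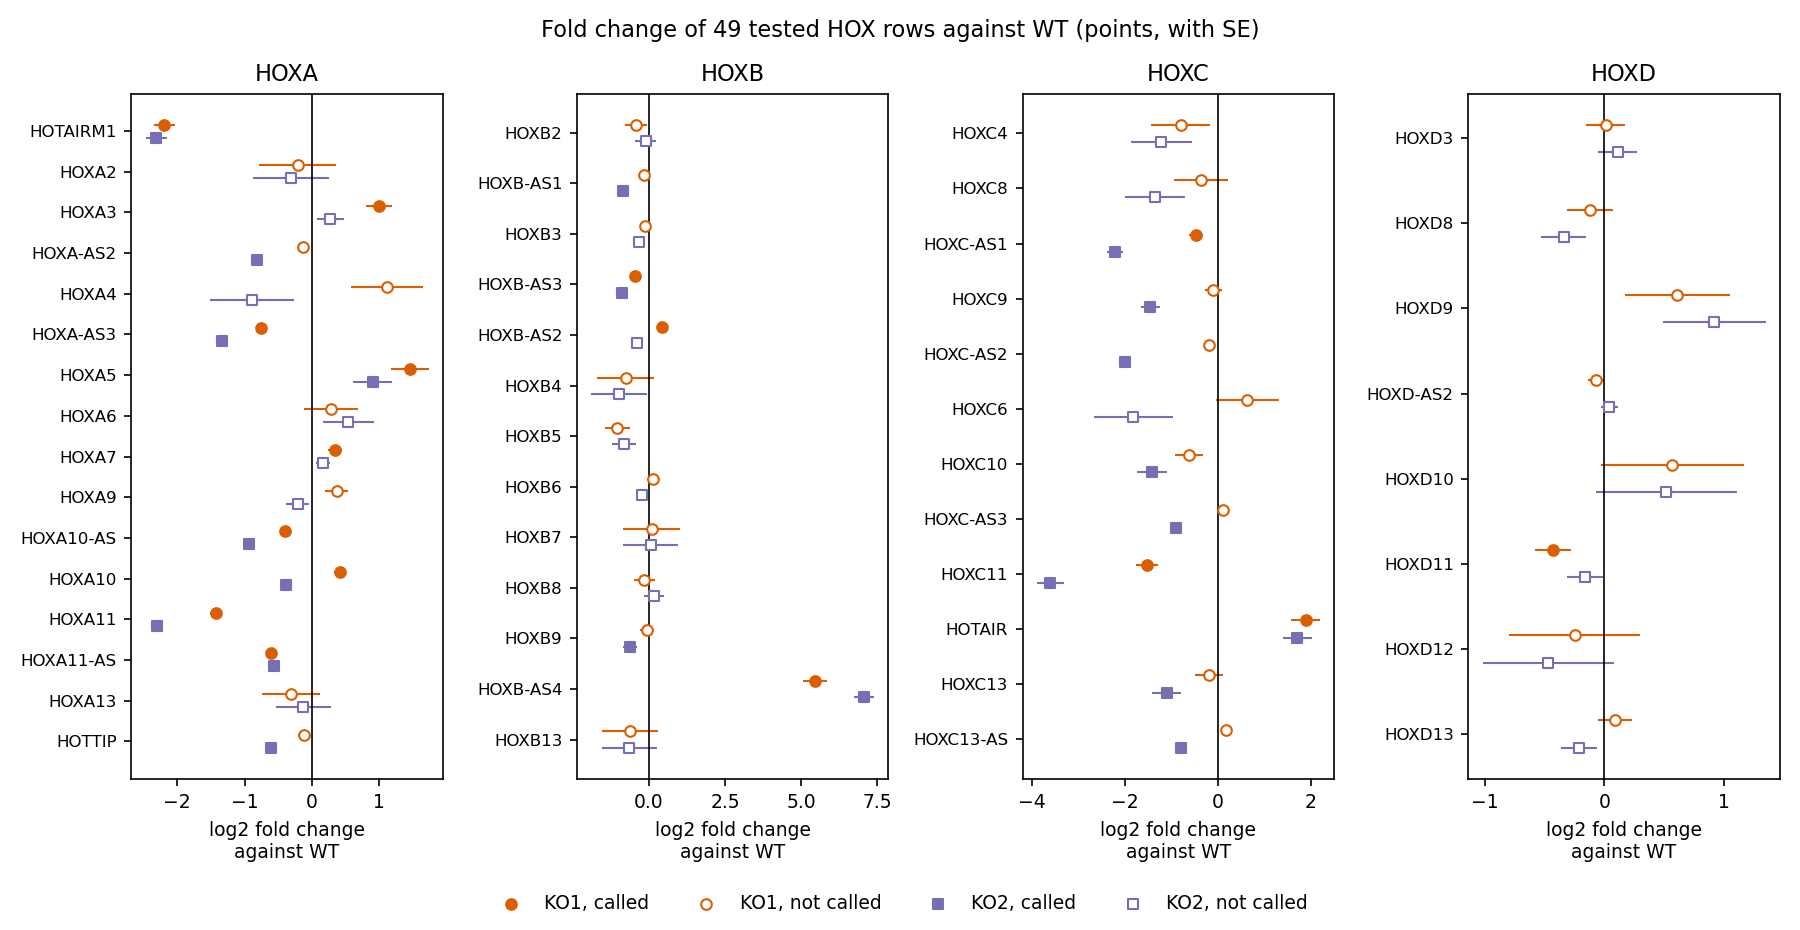
Log2 fold change against WT of 49 of the 50 tested HOX rows in KO1 (circles) and KO2 (squares), with SE, ordered from the low-numbered to the high-numbered end of each cluster; filled symbols are called, and each panel has its own scale. HOXB-AS4 and HOTAIR stand to the right in both lines, HOTAIRM1, HOXA11 and HOXC11 to the left, and the HOXD rows around 0.

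In HOXA, the early end of the cluster carried the largest loss of a noncoding row. HOTAIRM1, a long noncoding RNA at the low-numbered end of HOXA that is induced in myeloid differentiation (chr7:27095647-27100265, plus strand), had 86 and 112 reads in KO1 and 87 and 125 in KO2, against 520 and 438 in WT. All 4 knockout libraries lay below both WT libraries. Its log2 fold change was -2.19 ± 0.16 (SE) in KO1 and -2.31 ± 0.16 in KO2, a level 4.55-fold and 4.96-fold lower (edgeR adjusted p = 3.39e-14 and 3.86e-15).

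HOXA11, a gene of limb, uterus and kidney development, had the smallest p among the coding rows. Its row (chr7:27181510-27185223, minus strand) held 465 and 387 reads in KO1 and 274 and 265 in KO2, against 1182 and 1248 in WT. The 3 groups were separate, with KO2 lowest and WT highest. The log2 fold change was -1.43 ± 0.09 in KO1 and -2.30 ± 0.09 in KO2, or 2.69-fold and 4.93-fold lower (edgeR adjusted p = 2.55e-16 and 3.87e-22). The overlapping row HOXA11-AS had 2365 and 2310 reads in KO1 and 2742 and 2898 in KO2, against 3682 and 3930 in WT. It fell less, by 0.61 ± 0.06 in KO1 and 0.56 ± 0.06 in KO2 on the log2 scale (edgeR adjusted p = 5.13e-10 and 2.80e-09). The ratio of HOXA11-AS to HOXA11 reads was 5.09 and 5.97 in KO1 and 10 and 10.9 in KO2, against 3.12 and 3.15 in WT, so the 2 strands of the locus did not move in proportion.

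The 250 bases before the RefSeq start of the HOXA11 gene (GRCh38.p14, chr7:27185233-27185482, minus strand) are shown as the annotated promoter of that gene, written 5′ to 3′. The GENCODE start is at 27185223.
HOXA11: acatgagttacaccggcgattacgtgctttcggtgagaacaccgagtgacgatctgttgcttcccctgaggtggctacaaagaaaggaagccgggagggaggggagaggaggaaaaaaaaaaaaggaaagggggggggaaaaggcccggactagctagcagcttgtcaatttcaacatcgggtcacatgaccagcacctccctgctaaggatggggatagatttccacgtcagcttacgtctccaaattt
Both strands were searched for TATAAA (found in 10.7% of 35116 RefSeq promoter windows of this length), CCAAT (32.0%), the nuclear receptor motif AGGTCA (12.1%) and the HOX-PBX composite TGATTNAT (2.48%). None of these letters stood in this window, which held 11 CG dinucleotides, the median of all windows being 11. Counts followed the strand opposite to the annotated gene, so the window need not lie before the start of the RNA counted in the HOXA11 row.

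The most abundant HOXA rows fell in both lines. HOXA-AS3, whose exons lie over those of HOXA6 and HOXA7, had 5153 and 4739 reads in KO1 and 3770 and 3863 in KO2, against 8678 and 8989 in WT. Its log2 fold change was -0.75 ± 0.06 in KO1 and -1.34 ± 0.06 in KO2 (edgeR adjusted p = 2.1e-13 and 5.19e-21). HOXA10-AS, over HOXA9, HOXA10 and MIR196B, had 7187 and 6890 reads in KO1 and 5344 and 5875 in KO2, against 9622 and 10054 in WT. It fell by 0.40 ± 0.06 in KO1 and 0.94 ± 0.06 in KO2 on the log2 scale (edgeR adjusted p = 5.27e-07 and 1.01e-16). In both rows the groups were separate, KO2 being lowest.

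HOXA-AS2 and HOTTIP were called in KO2. HOXA-AS2, over HOXA3 and HOXA4, had 2280 and 2025 reads in KO1 and 1533 and 1587 in KO2, against 2371 and 2652 in WT (KO1 -0.13 ± 0.07, edgeR adjusted p = 0.178; KO2 -0.82 ± 0.07, adjusted p = 1.47e-12). HOTTIP, a noncoding RNA at the late end of HOXA that binds WDR5 of the trithorax-type MLL complexes, had 550 and 597 reads in KO1 and 485 and 463 in KO2, against 659 and 668 in WT (KO1 -0.12 ± 0.09, adjusted p = 0.426; KO2 -0.61 ± 0.09, adjusted p = 1.53e-06). In both rows the KO2 libraries lay below every other library, and the KO1 mean stood between KO2 and WT.

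Of the coding HOXA rows, HOXA5 rose in both lines and HOXA3 in KO1. HOXA5, a gene needed for lung development, had 64 and 80 reads in KO1 and 55 and 60 in KO2, against 28 and 28 in WT. Its log2 fold change was 1.45 ± 0.28 in KO1 and 0.90 ± 0.29 in KO2 (edgeR adjusted p = 0.00012 and 0.0176). The KO1 call held in every alternative run, while the KO2 call was lost without any 1 of the KO2 or WT libraries (0.85 to 0.96) and with DESeq2 (0.89). HOXA3, a gene of the pharyngeal arches, thymus and parathyroid, had 179 and 200 reads in KO1 and 165 and 101 in KO2, against 99 and 104 in WT. It rose in KO1 (0.99 ± 0.19, edgeR adjusted p = 0.000138) and was not called in KO2 (0.27 ± 0.20, adjusted p = 0.399; 0.61 without KO2 replicate 2, adjusted p = 0.0368).

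HOXA7 and HOXA10 showed smaller shifts. HOXA7 had 558 and 503 reads in KO1 and 526 and 562 in KO2, against 381 and 512 in WT, and was called in KO1 (0.34 ± 0.10, edgeR adjusted p = 0.0109; KO2 0.16 ± 0.10, adjusted p = 0.282). Without WT replicate 1 the KO1 value was 0.19, and without KO1 replicate 1 it was 0.31, neither called, nor was it called with DESeq2 (0.34). HOXA10, a gene of uterine and limb patterning, had 842 and 900 reads in KO1 and 584 and 578 in KO2, against 703 and 689 in WT. It was 0.41 ± 0.09 higher in KO1 and 0.39 ± 0.09 lower in KO2 on the log2 scale (edgeR adjusted p = 0.000334 and 0.000723). The ratio of HOXA10-AS to HOXA10 reads was 8.54 and 7.66 in KO1 and 9.15 and 10.2 in KO2, against 13.7 and 14.6 in WT. For HOXA10 as for HOXA11, then, the strands shifted relative to each other in both lines, towards HOXA10 in the one and towards HOXA11-AS in the other.

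**Figure D3:**
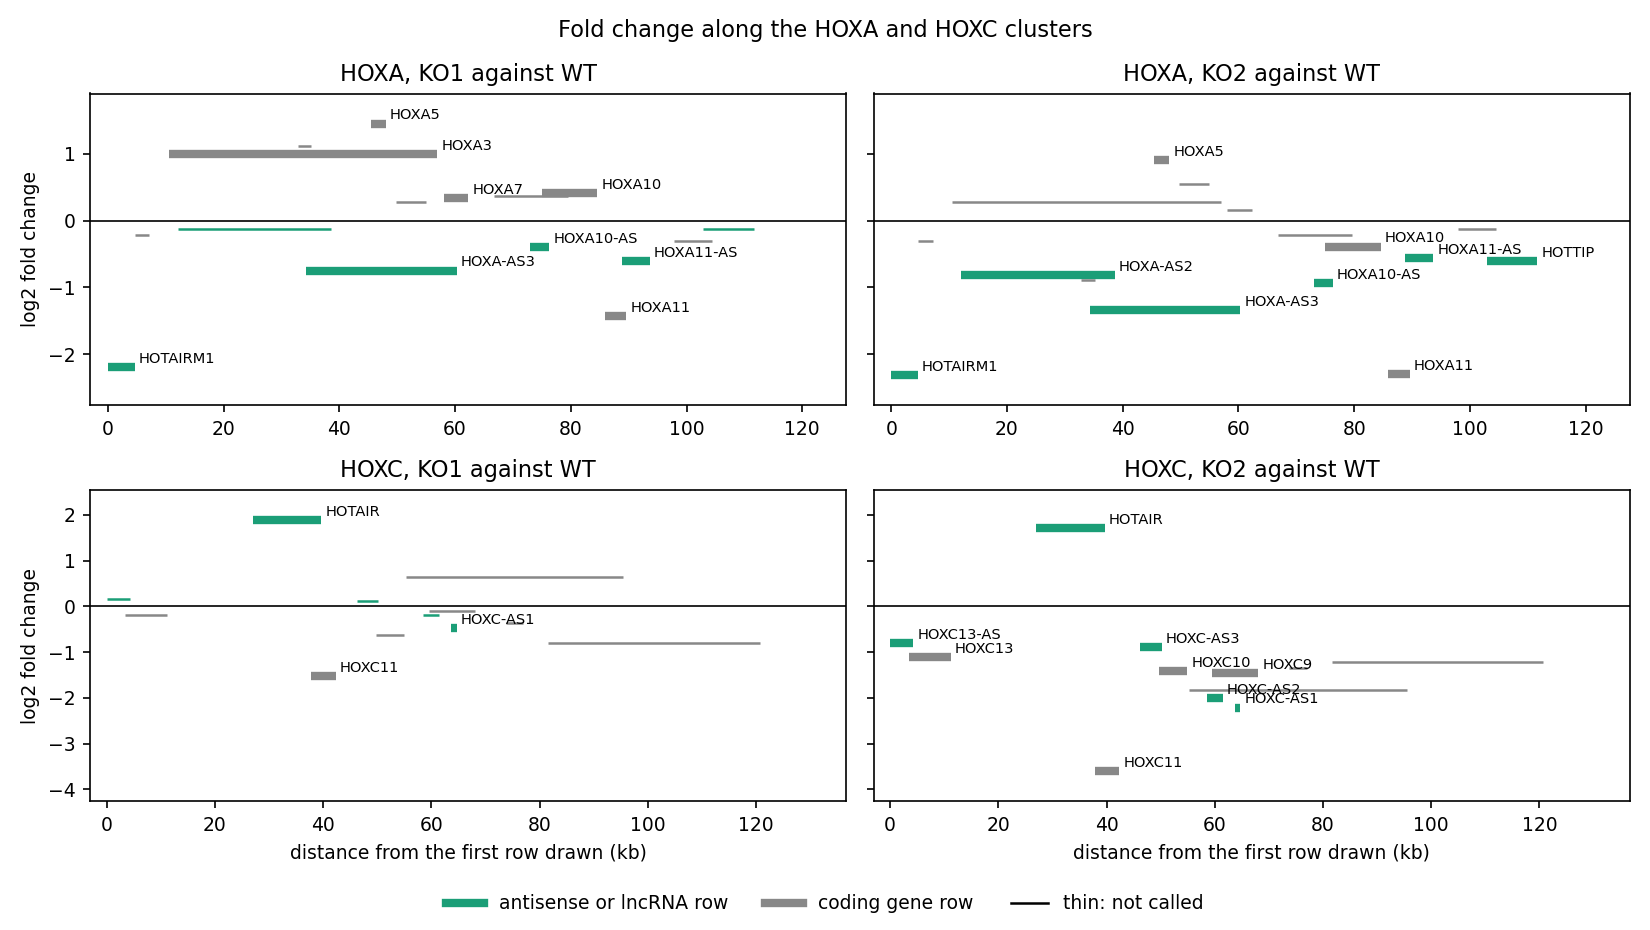
Log2 fold change against WT along the HOXA and HOXC clusters, by distance in kb from the first row drawn on the chromosome; each line spans a gene, green for noncoding and grey for coding rows, thick and named where called. In HOXC, KO1 had 3 called rows and KO2 had 9, and in both lines HOTAIR lies above 0 beside HOXC11, the lowest row.

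By their medians, rows around HOXB were lower in both lines and rows around HOXA were lower in KO2. Among 59 non-member rows inside HOXA or within 5 Mb of it, the median log2 fold change was 0.08 in KO1 and -0.37 in KO2. Among 148 such rows of HOXB it was -0.23 in KO1 and -0.33 in KO2. HOXC and its 209 rows stood apart from each other, with a median of -1.38 over the 12 tested HOXC members in KO2, and around the cluster of 0.01 in KO1 and 0.03 in KO2. HOXD had 66 such rows with medians of -0.13 and -0.01.

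With each library offset by its 10 Mb bin, taken from non-member rows, HOXA summed to a log2 ratio of -0.37 in KO1 and -0.52 in KO2. HOXB summed to -0.12 and -0.44. Without the offset the ratios were -0.48 and -0.96 for HOXA and -0.37 and -0.81 for HOXB. The HOXA bin rested on 19 rows, with -0.349 and -0.212 in the KO2 libraries, and the HOXB bin on 87 rows. Under that offset HOXA10 in KO2 was 0.05 in place of -0.39, HOXA11-AS in KO2 -0.12 in place of -0.56 and HOTTIP in KO2 -0.17 in place of -0.61, none of them called. HOXA3 in KO2 was then 0.71 and HOXA7 in KO2 0.60, both called. The calls of HOTAIRM1, HOXA11, HOXA-AS3 and HOXA10-AS held in both lines. The part of the regional shift in the HOX results was not tested.

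**Figure D4:**
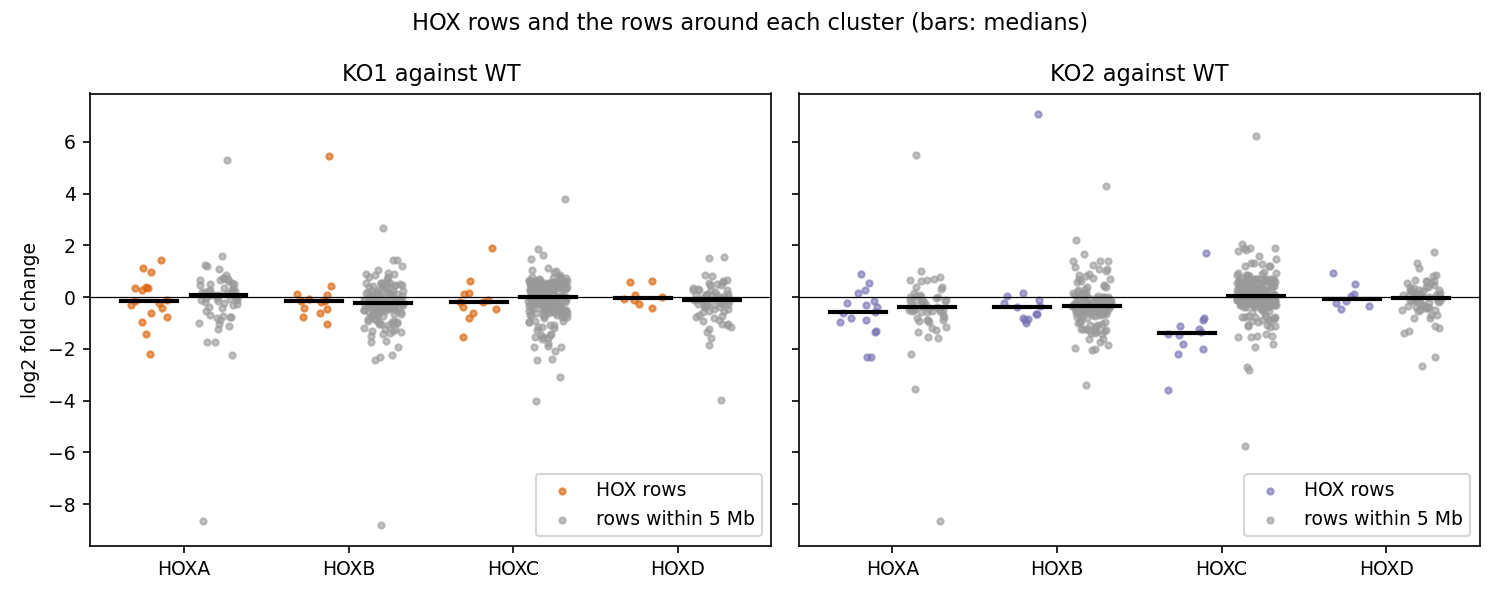
Log2 fold change against WT of each tested HOX row (coloured) and each tested non-member row inside a cluster or within 5 Mb of it (grey), with medians as bars, in KO1 and KO2. In KO2 the HOXA surroundings had a median of -0.37 and those of HOXB -0.33, while the HOXC rows were at -1.38 and their surroundings at 0.03.

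In HOXB, 1 row changed from near absence. HOXB-AS4 (chr17:48628675-48634932, plus strand) had 88 and 87 reads in KO1 and 312 and 317 in KO2, against 3 and 1 in WT. Every knockout library was far above WT, and KO2 was above KO1. Pooled and scaled by depth, the ratio to WT was 46.5 in KO1 (exact 95% interval 17.8 to 173) and 144 in KO2 (55.9 to 529), intervals that cover counting error only. The fitted log2 fold change was 5.45 ± 0.39 in KO1 and 7.08 ± 0.33 in KO2 (edgeR adjusted p = 3.37e-14 and 2.63e-20), and with so few WT reads its size depends on the prior count. The row lies within the span of HOXB7, an opposite-strand gene, for 4898 bases and shares no exon with it. The HOXB7 row itself held 4 and 4 reads in KO1, 7 and 2 in KO2 and 3 and 5 in WT. Since rows mostly read the strand opposite to their gene, these counts do not show the level of HOXB7 RNA.

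The promoter window of HOXB-AS4 (RefSeq, GRCh38.p14, chr17:48628448-48628697, plus strand, 250 bases before the RefSeq start) is shown because this row had the largest rise among the HOX rows, with the motif found in capitals. The window ends past the GENCODE start of the gene, which is at 48628675.
HOXB-AS4: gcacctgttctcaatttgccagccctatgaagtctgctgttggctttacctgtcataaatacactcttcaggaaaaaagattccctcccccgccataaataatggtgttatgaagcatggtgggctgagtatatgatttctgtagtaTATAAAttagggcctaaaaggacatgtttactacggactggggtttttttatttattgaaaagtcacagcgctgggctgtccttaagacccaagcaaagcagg
It held 1 TATAAA and 3 CG dinucleotides, and none of the other letters searched. A match is a description of the sequence, not a site shown to be used. The window belongs to the named gene, and counts followed the strand opposite to the annotated gene. It thus need not lie before the start of the RNA counted in this row.

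Of the other HOXB noncoding rows, HOXB-AS3 and HOXB-AS1 were lower in KO2 and HOXB-AS2 was not called there. HOXB-AS3, the most abundant HOX row, had 8283 and 7563 reads in KO1 and 6604 and 7071 in KO2, against 11257 and 11898 in WT. It fell by 0.46 ± 0.05 in KO1 and 0.89 ± 0.05 in KO2 on the log2 scale (edgeR adjusted p = 1.17e-08 and 2.11e-16), and the groups were separate. HOXB-AS1, over HOXB3 and HOXB2, had 2420 and 1985 reads in KO1 and 1525 and 1688 in KO2, against 2568 and 2736 in WT (KO1 -0.18 ± 0.07, edgeR adjusted p = 0.0625; KO2 -0.85 ± 0.07, adjusted p = 1.28e-12). HOXB-AS2 had 239 and 188 reads in KO1 and 117 and 162 in KO2, against 143 and 192 in WT. Its KO1 call was marginal (0.44 ± 0.16, edgeR adjusted p = 0.0498) and was lost without KO1 replicate 1 (0.30) or WT replicate 1 (0.29) and with DESeq2, limma-voom or no filter (0.44 each), and KO2 was not called (-0.39 ± 0.17, adjusted p = 0.0915; -0.61 without KO2 replicate 2, called).

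Coding HOXB rows were sparse. HOXB9, a gene of thoracic patterning in the mouse, had 92 and 84 reads in KO1 and 65 and 75 in KO2, against 77 and 122 in WT, and was called in KO2 (-0.63 ± 0.22, edgeR adjusted p = 0.0325). That call was lost without WT replicate 2 (-0.33), KO2 replicate 1 (-0.58) or KO2 replicate 2 (-0.70), and with DESeq2 (-0.65) or the 10 Mb bin offset (-0.27). HOXB5 had 15 and 16 reads in KO1 and 25 and 17 in KO2, against 40 and 28 in WT. It was called only in the mean of both lines (-0.93 ± 0.33, edgeR adjusted p = 0.0397), and 4 of the 6 fits that left out a library lost it, the one without WT replicate 1 giving -0.60, without KO2 replicate 2 -0.80, without KO1 replicate 1 -0.89 and without KO1 replicate 2 -0.98. DESeq2 (-0.95) and the 10 Mb bin offset (-0.63) lost it too. The 7 HOXB rows that were not called in any comparison held 23 to 793 reads in all.

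HOXC was the cluster in which the lines parted most. HOXC-AS2, over HOXC9, had 635 and 616 reads in KO1 and 185 and 229 in KO2, against 680 and 832 in WT. KO2 lay far below the other groups (-2.00 ± 0.10, edgeR adjusted p = 8.28e-19), and KO1 was not called (-0.18 ± 0.09, adjusted p = 0.18). HOXC-AS1 had 207 and 156 reads in KO1 and 60 and 66 in KO2, against 272 and 262 in WT. It fell by 2.21 ± 0.17 in KO2 and 0.47 ± 0.15 in KO1 on the log2 scale (edgeR adjusted p = 2.2e-13 and 0.0202), the KO1 call being lost without KO1 replicate 2 (-0.33) or WT replicate 1 (-0.39) and with DESeq2 (-0.48) or the 10 Mb bin offset (-0.42).

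HOXC-AS3 and HOXC13-AS fell in KO2 by less. HOXC-AS3 had 659 and 604 reads in KO1 and 370 and 363 in KO2, against 618 and 626 in WT (KO1 0.11 ± 0.09, edgeR adjusted p = 0.469; KO2 -0.89 ± 0.09, adjusted p = 4.15e-10). HOXC13-AS had 493 and 481 reads in KO1 and 281 and 300 in KO2, against 419 and 505 in WT (KO1 0.17 ± 0.10, adjusted p = 0.277; KO2 -0.80 ± 0.10, adjusted p = 7.29e-08). In both rows KO2 lay below every other library and KO1 was not called.

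Among the coding HOXC rows, HOXC11 fell most. This row (chr12:53973126-53977643, plus strand) had 58 and 41 reads in KO1 and 17 and 10 in KO2, against 133 and 170 in WT, and the 3 groups were separate. Its log2 fold change was -1.52 ± 0.23 in KO1 and -3.60 ± 0.29 in KO2, or 2.87-fold and 12.1-fold lower (edgeR adjusted p = 2.59e-06 and 5.01e-13). HOXC11 belongs with HOXA11 and HOXD11 to paralog group 11, which in the mouse is required for kidney and forelimb formation. HOXD11 had 151 and 123 reads in KO1 and 196 and 189 in KO2, against 195 and 198 in WT. It was called in KO1 (-0.43 ± 0.15, edgeR adjusted p = 0.0433) and not in KO2 (-0.16 ± 0.15, adjusted p = 0.515), and the KO1 call was lost without KO1 replicate 2 (-0.34), WT replicate 1 (-0.39) or WT replicate 2 (-0.48). It was also lost with DESeq2 and no filter (-0.44 each), limma-voom (-0.43), upper-quartile factors (-0.38) and the 10 Mb bin offset (-0.31), and in all in 9 of 15 alternatives.

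The remaining called HOXC genes were lower in KO2. HOXC9, a gene that sets thoracic motor neuron identity in the mouse and chick, had 115 and 131 reads in KO1 and 63 and 48 in KO2, against 124 and 155 in WT (KO1 -0.09 ± 0.19, edgeR adjusted p = 0.825; KO2 -1.45 ± 0.21, adjusted p = 6.88e-07). HOXC10, its lumbar counterpart, had 35 and 32 reads in KO1 and 24 and 21 in KO2, against 47 and 63 in WT (KO1 -0.62 ± 0.30, adjusted p = 0.164; KO2 -1.41 ± 0.32, adjusted p = 0.000721). HOXC13, a gene of hair and nail formation, had 36 and 52 reads in KO1 and 31 and 23 in KO2, against 60 and 46 in WT (KO1 -0.18 ± 0.30, adjusted p = 0.762; KO2 -1.10 ± 0.32, adjusted p = 0.00861). The HOXC13 call was lost without KO2 replicate 2 (-0.87) or WT replicate 1 (-0.84). KO2 had the lowest 2 libraries for each of these 3 genes.

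HOTAIR, the HOXC noncoding RNA known for binding the Polycomb complex PRC2 and acting on HOXD, was the exception in its cluster. Its row (chr12:53962308-53974956, minus strand) had 76 and 54 reads in KO1 and 67 and 66 in KO2, against 13 and 24 in WT, with no overlap between knockout and WT libraries. The log2 fold change was 1.89 ± 0.31 in KO1 and 1.71 ± 0.31 in KO2, or 3.72-fold and 3.28-fold higher (edgeR adjusted p = 1.07e-05 and 4.08e-05). HOTAIR and HOXC11 lie on opposite strands and share 1831 bases of their spans and no exon. At this locus the row of one strand was higher and that of the other lower in both lines. Since rows mostly read the strand opposite to their gene, the rise of this row does not show a rise of HOTAIR RNA. The fall of the HOXC11 row likewise does not show a fall of HOXC11 RNA.

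**Figure D5:**
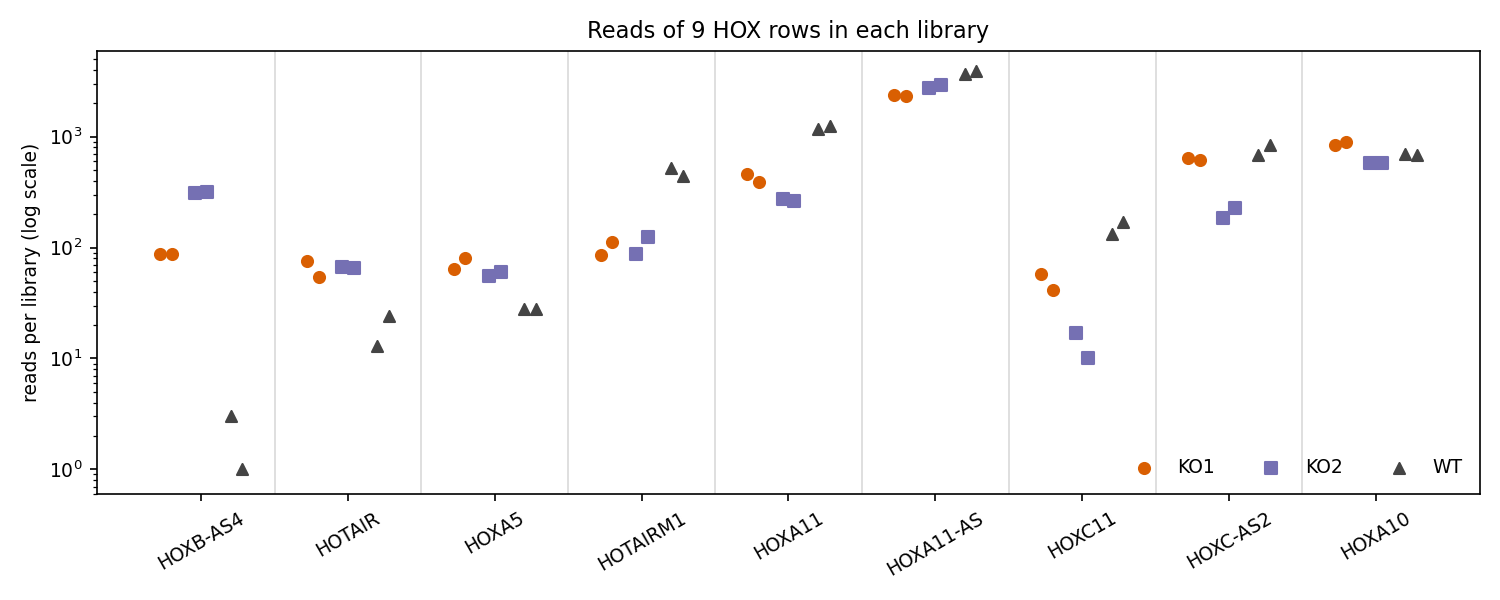
Reads per library, on a log scale, of 9 HOX rows in KO1 (circles), KO2 (squares) and WT (triangles). HOXB-AS4 had 87 to 317 reads in the knockout libraries, against 3 and 1 in WT; HOTAIR and HOXA5 were higher and HOTAIRM1, HOXA11, HOXA11-AS and HOXC11 lower in all 4 knockout libraries, and HOXC-AS2 was lowest in KO2.

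HOXD stayed near the WT level in both lines. HOXD-AS2, over HOXD3, had 2793 and 2273 reads in KO1 and 3038 and 3275 in KO2, against 2688 and 2945 in WT (KO1 -0.07 ± 0.07, edgeR adjusted p = 0.58; KO2 0.04 ± 0.07, adjusted p = 0.784). Without KO1 replicate 1 the KO1 value was -0.17 and called. HOXD13, a gene of digit formation, had 186 and 196 reads in KO1 and 176 and 185 in KO2, against 187 and 194 in WT (KO1 0.09 ± 0.14, adjusted p = 0.745; KO2 -0.21 ± 0.15, adjusted p = 0.357). In both rows the KO1 and WT reads overlapped. The 5 HOXD rows not named for a call or abundance had log2 fold changes of -0.25 to 0.61 in KO1 and -0.47 to 0.92 in KO2, none called.

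Tested directly, the knockout lines differed in 21 of 50 members (42.0%), where 15.4% of all rows were called between them. KO1 was higher in 20 of these (7.67% of all rows were higher in KO1) and lower in HOXB-AS4 alone (7.78% lower). The median member log2 fold change of KO1 over KO2 was 0.38, beside -0.02 over all rows. By cluster 9 of 17 HOXA rows, 4 of 13 HOXB, 8 of 12 HOXC and 0 of 8 HOXD differed by edgeR (0 by DESeq2 and limma-voom, and 1 HOXD row at an unadjusted edgeR p under 0.05). The log2 difference was 2.08 ± 0.33 for HOXC11, 1.81 ± 0.10 for HOXC-AS2 and 1.74 ± 0.18 for HOXC-AS1 (edgeR adjusted p = 6.09e-06, 8.7e-17 and 5.96e-10). HOTAIRM1, HOTAIR, HOXA5 and HOXA11-AS were not called between the lines, at 0.12 ± 0.19, 0.18 ± 0.26, 0.54 ± 0.25 and -0.05 ± 0.06.

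The remaining rows called only between the lines were low or nearly level. HOXA4 had 16 and 29 reads in KO1 and 3 and 10 in KO2, against 14 and 8 in WT, and HOXC6 had 17 and 8 in KO1 and 3 and 2 in KO2, against 3 and 14 in WT. Their differences were 2.00 ± 0.57 and 2.47 ± 0.81 on the log2 scale (edgeR adjusted p = 0.0114 and 0.0296). HOXA4 lost the call without KO1 replicate 2 (1.46) or KO2 replicate 1 (1.42), and HOXC6 without KO1 replicate 1 (1.89), KO2 replicate 1 (2.81) or KO2 replicate 2 (2.18) and with limma-voom (2.28). HOXA9, a gene of blood stem cells and leukaemia, had 157 and 224 reads in KO1 and 148 and 149 in KO2, against 146 and 168 in WT, with a difference of 0.58 ± 0.17 between the lines (edgeR adjusted p = 0.0127). That call was lost without KO1 replicate 2 (0.25), KO2 replicate 1 (0.62) or KO2 replicate 2 (0.54) and with the 10 Mb bin offset (0.25), and KO1 against WT (0.37 ± 0.17) was called without KO1 replicate 1 (0.65) and with the 10 Mb bin offset (0.48).

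The 17 tested members without a call or high abundance had summed counts of 23 to 987 reads. Their log2 fold changes ran from -0.80 to 0.61 in KO1 and from -1.35 to 0.92 in KO2. Their SEs ran from 0.16 to 0.93 on the log2 scale, so small changes in the sparser rows were not detectable at this depth.

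Regulators and cofactors of HOX genes, were taken from lists drawn up with earlier results of these data known, and each row below again reads mostly the strand opposite to its gene. Their call shares are to be read against 18.2% of all rows in KO1 and 22.6% in KO2. Of 28 tested Polycomb rows, the 3 called in KO1 were lower (10.7%), and 2 rose and 2 fell in KO2 (14.3%), with medians of 0.12 and 0.06. The list summed to 493 to 495 CPM in KO1 and 532 to 539 in KO2, against 493 to 503 in WT, and KO2 lay above the other groups. RBBP4, named for a histone-binding subunit of PRC2, had 66 and 84 reads in KO1 and 78 and 113 in KO2, against 171 and 194 in WT, and fell in both lines (-1.19 ± 0.20 and -1.06 ± 0.19; edgeR adjusted p = 9.57e-06 and 2.58e-05). It shares 1706 exonic bases with SYNC. PCGF1, a subunit of variant PRC1, had 18 and 18 reads in KO1 and 29 and 18 in KO2, against 60 and 55 in WT (-1.58 ± 0.34 and -1.41 ± 0.33; edgeR adjusted p = 0.000595 and 0.00105; in KO2 -1.08 and not called without KO2 replicate 2).

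Of 17 trithorax and H3K27 demethylase rows, the 2 called in KO1 were higher (11.8%), and 4 rose and 1 fell in KO2 (29.4%), with medians of 0.07 and 0.34, beside 0.02 and 0.04 over all rows. The list summed to 195 to 201 CPM in KO1 and 222 to 236 in KO2, against 176 to 183 in WT, with no overlap between the groups. PSIP1, a chromatin reader that recruits MLL, had 495 and 433 reads in KO1 and 486 and 597 in KO2, against 343 and 408 in WT (0.39 ± 0.10 and 0.40 ± 0.10; edgeR adjusted p = 0.00399 and 0.00248). Without WT replicate 1 these were 0.32 and 0.33, and without KO2 replicate 2 the KO2 value was 0.28, none called. The TALE cofactor and parahox list summed to 25.1 to 27.3 CPM in KO1 and 22.5 to 24 in KO2, against 17.5 to 21.3 in WT, both lines above WT. Among its 8 tested rows, with medians of 0.45 in KO1 and 0.29 in KO2, 1 was called in each line (12.5%). CDX2, an activator of HOX genes, was called in KO1 (1.61 ± 0.46, edgeR adjusted p = 0.00967; KO2 1.19 ± 0.47, adjusted p = 0.0636) and MEIS1, a partner of HOX proteins on DNA, in KO2 (-2.31 ± 0.77, adjusted p = 0.0238; KO1 -1.54 ± 0.72, adjusted p = 0.15). CDX2 had 36 and 22 reads in KO1 and 31 and 19 in KO2, against 7 and 13 in WT, and MEIS1 had 4 and 5 in KO1 and 4 and 2 in KO2, against 20 and 8 in WT. None of the 11 retinoic acid pathway rows was called in either line by edgeR, DESeq2 or limma-voom, and edgeR gave 1 in KO1 and 0 in KO2 at an unadjusted p under 0.05. RARA, a retinoic acid receptor gene, had 96 and 129 reads in KO1 and 98 and 80 in KO2, against 64 and 102 in WT, and ALDH1A2, which makes retinoic acid, had 24 and 12 in KO1 and 23 and 24 in KO2, against 13 and 13 in WT.

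Among the neighbours of the HOX genes outside the member rule, HAGLR and HAGLROS were lower in both lines. Of 12 tested neighbour rows, 3 were called in each line, all lower, a share of 25.0% near that of all rows, with medians of -0.59 in KO1 and -0.31 in KO2. HAGLR, a noncoding RNA gene within HOXD that runs against HOXD1 and HOXD3 (chr2:176164051-176188958, minus strand), had 130 and 101 reads in KO1 and 86 and 102 in KO2, against 216 and 238 in WT. It fell by 0.89 ± 0.17 in KO1 and 1.40 ± 0.17 in KO2 on the log2 scale (edgeR adjusted p = 7.37e-05 and 1.75e-08), calls that held in every alternative run. HAGLROS, on the other strand of HAGLR, had 2 and 11 reads in KO1 and 5 and 6 in KO2, against 21 and 30 in WT (-1.85 ± 0.58 and -2.31 ± 0.59; edgeR adjusted p = 0.0193 and 0.00289; in KO1 -1.07 without KO1 replicate 1 and -1.64 without WT replicate 2, -1.86 with DESeq2, not called). HAGLR and HAGLROS were thus lower within a cluster in which no member was called in KO2.

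Markers of cell identity gave no clear test of the kidney label, since a marker row mostly reads the other strand. Of 21 kidney lineage markers 8 were tested, and LHX1, OSR1, UMOD and SLC12A3 were at 0 in all libraries. In KO1 1 of the 8 rose and 1 fell (25.0% called), and in KO2 1 rose and 2 fell (37.5%), with medians of -0.54 and -0.84. The summed level of the list was 39.4 to 41.3 CPM in KO1 and 32.1 to 35.3 in KO2, against 47.4 to 48.1 in WT. SALL1, a nephron progenitor factor, had 74 and 72 reads in KO1 and 85 and 75 in KO2, against 32 and 58 in WT (0.79 ± 0.26 and 0.71 ± 0.26; edgeR adjusted p = 0.0265 and 0.0413), and each of the calls was lost in 3 of the fits that left out a library, without WT replicate 1 being 0.47 and 0.39. DESeq2 lost both calls (0.79 and 0.69), and no filter (0.69) and the 10 Mb bin offset (0.68) lost the KO2 call.

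Neural and adrenal markers reported in HEK293 lines summed lowest in KO1 and highest in KO2. The 16 listed rows summed to 94.5 to 96.1 CPM in KO1 and 198 to 206 in KO2, against 135 to 140 in WT, and 2 were at 0 in all libraries. Of 11 tested, 5 were called in KO1 (45.5%), all lower, and 4 in KO2 (36.4%), all higher, with medians of -0.76 and 0.11. NEFL, a neurofilament gene, had 24 and 15 reads in KO1 and 55 and 70 in KO2, against 9 and 12 in WT (KO1 0.97 ± 0.44, edgeR adjusted p = 0.129; KO2 2.43 ± 0.38, adjusted p = 2.62e-06). VIM, an intermediate filament gene, had 296 and 313 reads in KO1 and 678 and 692 in KO2, against 339 and 352 in WT (KO1 -0.09 ± 0.10, edgeR adjusted p = 0.628; KO2 0.86 ± 0.10, adjusted p = 3.69e-09). Neither NEFL nor VIM was among the 5 rows that were lower in KO1. Fibroblast and blood cell markers summed to 20.9 CPM in both KO1 libraries and 30.4 to 36.4 in KO2, against 35.7 to 41.3 in WT, with 1 of 5 tested rows called in KO1, lower. PTPRC, the blood cell marker CD45, had 15 and 9 reads in KO1 and 17 and 18 in KO2, against 7 and 10 in WT. It was not the row called (KO1 0.58 ± 0.57, edgeR adjusted p = 0.567; KO2 0.91 ± 0.54, adjusted p = 0.261). The part of these marker shifts in the HOX differences was not tested.

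The authors' deposited table, which compares the knockout libraries of both lines together with WT, listed 43 of the 55 members. It gave a q-value under 0.05 to 9 of them, HOTAIR and HOXA5 higher and 7 others lower, and all 9 were called with the same sign in the mean of both lines here. Of the 43, 42 had the same sign in both. In the authors' deposited table HOTAIRM1 had a log2 fold change of -2.22 (q = 0.000335), HOXA11 -1.85 (q = 0.00262) and HOXC11 -2.60 (q = 0.015). HOXB-AS4 had 6.24 with q = 0.0763 in the authors' deposited table, although each line was called against WT here. Apart from those 9, the members called in the mean of both lines here all had q-values above 0.05 in the authors' deposited table. These were 0.2 for HOXA-AS2, 0.199 for HOXC-AS2, 0.247 for HOTTIP and 0.261 for HOXC9, among others. The spread used here was that between libraries of 1 group, without the difference between the lines.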

How the data were processed

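Total RNA libraries were prepared with a strand-specific kit (NEBNext Ultra II Directional), per the labels' protocols. The submitters' processing notes name STAR 2.7.1a and HTSeq 0.6.1p1, with Trim Galore and limma, and list hg38 and GRCh38.p6 as builds; strand setting and annotation were not given in the sources used here. The count table, as deposited, holds raw whole-number counts by gene symbol. The authors' deposited table gives log2 fold changes and q-values of the 4 knockout libraries against WT, which were used only for the comparison with it.

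Groups were taken from the labels. Counts were fitted with edgeR 4.0.16 in R 4.3.3 (TMM scaling, quasi-likelihood F test, Benjamini-Hochberg adjustment over all 18108 rows with a summed count of at least 20). The 3 groups and 6 libraries shared 1 fit and no covariate was used; residual degrees of freedom were 3, prior ones 35.2, and the biological coefficient of variation was 7.80%. Each line and the mean of both were set against WT, and KO1 against KO2. Library totals ran from 7414339 to 8391143 reads, and the SE beside each fold change gives its precision. The fitting was tested on simulated data. Chi-square tests between replicates gave 3.62 (KO1), 2.19 (KO2) and 2.32 (WT) per degree of freedom, above counting noise, so no libraries were duplicates.

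Rows were placed on GRCh38 by symbol with GENCODE release 29, which placed 56195 of 59087. Of the 55 members 29 had a RefSeq promoter entry. The text names each member called in any contrast or among the 3 most abundant of its cluster, and list rows called in both lines or of smallest p. HOXB7 and the 5 untested members were named outside that rule, after their values were seen, and HOXA6, HOXB2, HOXB3, HOXB6, HOXC4, HOXD3 and HOXD10 for overlaps of exons. A few rows that the rule would name are not reported here. Members and lists were chosen with earlier results of these data known. The alternatives tried were limma-voom 3.58.1, DESeq2 1.42.0, upper-quartile and RLE factors, filterByExpr and no filter, the replicate number as a block, only the libraries compared, an offset by 10 Mb bin, and leaving out each library.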

Additional observations from a re-analysis of the deposited data

Results flagged for a closer look

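The KO1 and KO2 lines differed from each other in 21 HOX rows by edgeR's quasi-likelihood test of KO1 against KO2, where 15.4% of all rows did. The values that follow are log2 fold changes of KO1 over KO2.

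In HOXA, KO1 was higher in HOXA4 (2.00), HOXA11 (0.88), HOXA10 (0.80), HOXA3 (0.72), HOXA-AS2 (0.68), HOXA-AS3 (0.59), HOXA9 (0.58), HOXA10-AS (0.55) and HOTTIP (0.49). In HOXB it was higher in HOXB-AS2 (0.83), HOXB-AS1 (0.67) and HOXB-AS3 (0.43), and HOXB-AS4 was the row that was lower (-1.63). In HOXC it was higher in HOXC6 (2.47), HOXC11 (2.08), HOXC-AS2 (1.81), HOXC-AS1 (1.74), HOXC9 (1.36), HOXC-AS3 (1.00), HOXC13-AS (0.96) and HOXC13 (0.92). No HOXD row was among them by edgeR, 0 of 8 tested.

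HOXA10 was the 1 row called against WT in both lines with opposite signs, and 10 Mb bins around HOXA differed between them too, at -0.107 for KO1 minus WT and -0.441 for KO2 minus WT on the log2 scale. Of the 21 calls, 15 held in every alternative run, the exceptions being HOTTIP, HOXA3, HOXA4, HOXA9, HOXC6 and HOXC13.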

How the results depend on the processing

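Of the calls of named members, 12 of 16 in KO1, 16 of 23 in KO2, 16 of 23 in the mean of both lines and 15 of 21 between KO1 and KO2 held in every alternative. For single members, 1794 values kept their direction and call, 87 lost and 15 gained a call, 46 uncalled ones moved by more than their SE and 1 reversed, HOXA10 in KO2 (0.05 with the 10 Mb bin offset, -0.39 without). That offset gave 5 members higher in KO2 in place of 3, 5 higher in both lines in place of 3, and 2 lower in KO1 against KO2 in place of 1; HOXA3 and HOXA7 were the added rows in KO2. It gave summed log2 ratios of -0.37 and -0.52 for HOXA in KO1 and KO2, -0.12 and -0.44 for HOXB, and 0.05 and 0.09 for HOXD. Raw library totals gave -0.89 for HOXA, -0.73 for HOXB, -1.24 for HOXC and 0.08 for HOXD in KO2, upper-quartile factors -0.42 for HOXA in KO1, and RLE factors -0.01 for HOXD in KO2. Flanking medians within 2 Mb were -0.16 (HOXA, KO1), -0.04 (HOXC, KO1), -0.27 (HOXD, KO1) and -0.09 (HOXD, KO2), and within 10 Mb 0.21 (HOXA, KO1), -0.27 (HOXB, KO2), 0.05 (HOXC, KO2), -0.08 (HOXD, KO1) and 0.08 (HOXD, KO2). List rows called in both lines were 1 higher with DESeq2 and 1 with no filter, in place of 2, and 3 lower with DESeq2, in place of 5. DESeq2 gave no adjusted p for HOXA4 and HOXC6 between KO1 and KO2. The cause of these shifts was not tested.

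Leaving out each library in turn gave 5 to 7 members higher and 7 to 11 lower in KO1, 2 to 3 and 18 to 20 in KO2, 3 to 5 and 15 to 18 in the mean of both lines, and 16 to 20 and 1 to 2 in KO1 against KO2. In both lines it gave 2 to 3 higher and 7 to 9 lower members, and 0 to 2 higher and 3 to 6 lower list rows. Where it left a group with 1 library, that library was assumed to vary like the others. The mean of both lines had 3 higher members without KO2 replicate 1, the higher list count was 0 without WT replicate 1 and the lower 3 without WT replicate 2.

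Same-numbered libraries did not deviate together (correlations of -0.0993, -0.0255 and -0.0127 over 6425 rows), so the numbers were not taken as pairs. With the replicate block, members numbered 6 higher and 8 lower in KO1, 3 and 20 in KO2, 5 and 18 in the mean, and 19 and 1 in KO1 against KO2. The rows that lost a call with the block were HOXD11 (-0.44, edgeR adjusted p = 0.0507) and HOXB-AS2 (0.45, adjusted p = 0.0577) in KO1 and HOXC13 (0.93, adjusted p = 0.0578) between KO1 and KO2.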
